A study of Saccharomyces cerevisiae with 4 samples.

Results

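Small RNA over 10 heat shock and chaperone genes of Saccharomyces cerevisiae, the budding yeast, is described here across 4 genotypes. The genes were chosen by identifier from the 5798 genes of the deposited table: SSA1 (YAL005C), SSA2 (YLL024C), SSA4 (YER103W), SSE1 (YPL106C), HSP82 (YPL240C), HSC82 (YMR186W), HSP104 (YLL026W), HSP78 (YDR258C), HSP26 (YBR072W) and HSP12 (YFL014W). All 10 were present in the table. The libraries came from a strain lacking XRN1 that carried DCR1 and AGO1 (xrn1 RNAi, strain YAM1982), a strain with XRN1 that carried DCR1 and AGO1 (RNAi, YAM1725), a strain lacking XRN1 (xrn1, YAM2271) and a wild-type strain (WT, YAM1730). There was 1 library per genotype, made from RNA of 10 to 40 nucleotides, and the series title gives the aim as mapping double-stranded RNA with a rebuilt RNA interference pathway. No label states a growth condition or a heat treatment.

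Chaperones bind unfolded proteins and help them to fold, and many of their genes are switched on by heat through the transcription factor Hsf1 or by general stress through Msn2 and Msn4. Budding yeast has no RNA interference of its own. DCR1 encodes a Dicer, an enzyme that dices long RNA duplexes, and AGO1 an Argonaute, the protein that holds the resulting small RNAs. XRN1 encodes the cytoplasmic exoribonuclease that degrades decapped RNA from its 5′ end.

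The libraries held 7686801 reads over the listed genes in xrn1 RNAi, 1801407 in RNAi, 2825322 in xrn1 and 627607 in WT. Values are given as deposited; a single read (1) counted for 0.0762 in xrn1 RNAi, 0.318 in RNAi, 0.330 in xrn1 and 1 in WT. This deposited scale is not per gene length. Intervals are 95% intervals that cover counting error only (Poisson for a value, exact Clopper-Pearson for a ratio or a share), since 1 library per genotype gives no replicate check and no test between a pair of genotypes. A model over all 4 libraries is given last. Small RNAs of the mitochondrial genome took 0.0394% of the reads in xrn1 RNAi and 0.361% in RNAi, against 33.1% in xrn1 and 26.7% in WT. XRN1 itself had 0 reads in xrn1 RNAi and 39 in RNAi, and 3 reads in xrn1 against 148 in WT. Read length and strand are not part of the table, so a value is not shown to come from Dicer, from the sense strand or from the antisense strand. In a bulk culture, fewer cells that carry a small RNA and less of it per cell cannot be told apart.

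The sequences of the duplicated genes come first, because they decide which values belong to 1 gene. SSA1 and SSA2 encode near-identical cytosolic Hsp70 proteins, the chaperones that bind short unfolded stretches. Their coding sequences were 96.4% identical in RefSeq assembly R64, with a longest identical run of 383 bases. HSP82 and HSC82 encode the 2 cytosolic Hsp90 proteins, which hold regulatory proteins in an activatable form. They were 91.7% identical, with a longest identical run of 113 bases. SSA4, the Hsp70 gene best known for its response to heat, was 74.2% identical to SSA1. The 60-base windows with the most differences are shown for each pair, with the differing bases in capitals, to show how little separates the copies. There were 9 such bases for SSA1 and SSA2 (chrI:139712-139771 and chrXII:95766-95825, minus strand of R64) and 14 for HSP82 and HSC82 (chrXVI:97347-97406, minus strand, and chrXIII:633562-633621, plus strand).
SSA1: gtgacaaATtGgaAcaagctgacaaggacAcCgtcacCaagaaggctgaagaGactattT
SSA2: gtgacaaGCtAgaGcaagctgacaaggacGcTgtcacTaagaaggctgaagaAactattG
HSP82: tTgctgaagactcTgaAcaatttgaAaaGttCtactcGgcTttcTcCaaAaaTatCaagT
HSC82: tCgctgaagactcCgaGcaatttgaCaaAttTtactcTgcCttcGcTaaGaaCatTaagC

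Every possible window of 18, 23 or 30 bases of each coding sequence was looked for in the R64 genome on both strands. Of the 23-base windows, 67.5% of those of SSA1 and 67.8% of those of SSA2 occurred elsewhere. The share was 24.0% for HSP82 and 24.1% for HSC82. SSE1 had 0.0485% of its windows elsewhere, and SSA4, HSP104, HSP78, HSP26 and HSP12 had 0%. The sources used here do not say how reads that map to several places were assigned. The values of SSA1 and SSA2, and to a smaller degree those of HSP82 and HSC82, are therefore uncertain as values of single genes, and the sum of each pair is given in each of the 4 comparisons.

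**Figure D1:**
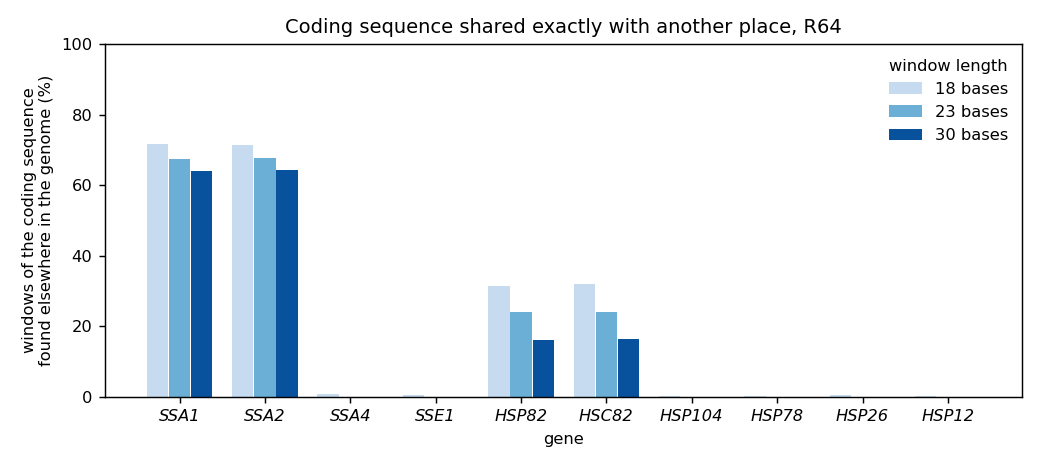
Share of windows of 18, 23 and 30 bases (percent, vertical axis from 0) of each coding sequence that occur at another place of the R64 genome on either strand. SSA1 and SSA2 lie near 70%, HSP82 and HSC82 between 16.2% and 32.1%, and the other 6 genes below 1% at each length.

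The cytosolic Hsp70 genes had their lowest values in the library with both changes. SSA1 had values of 4.27 in xrn1 RNAi, 71.5 in RNAi, 116 in xrn1 and 56 in WT. SSA2 had 8.003 in xrn1 RNAi, 43.2 in RNAi, 252 in xrn1 and 97 in WT. For both genes the xrn1 RNAi interval lay below those of the other 3 libraries. SSA4 had 11.5 in xrn1 RNAi, 62.6 in RNAi, 37.0 in xrn1 and 27 in WT, and was the only gene of the 10 with its highest value in RNAi. SSE1 encodes the Hsp110 protein that exchanges the nucleotide on Hsp70, and had 13.7 in xrn1 RNAi, 24.5 in RNAi, 555 in xrn1 and 142 in WT. The value of SSE1 in xrn1 was the highest of the 10 genes in any library.

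Both Hsp90 genes were highest in xrn1. HSP82, the copy known to be heat-inducible, had 59.3 in xrn1 RNAi, 14.3 in RNAi, 259 in xrn1 and 39 in WT. HSC82, the copy known for steady expression, had 18.9 in xrn1 RNAi, 9.53 in RNAi, 326 in xrn1 and 66 in WT. In contrast to the Hsp70 genes, neither had its lowest value in xrn1 RNAi.

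The disaggregases, which pull proteins out of aggregates, had the pattern high without and low with DCR1 and AGO1. HSP104, the cytosolic enzyme, had 23.7 in xrn1 RNAi, 17.5 in RNAi, 435 in xrn1 and 234 in WT. HSP78, its mitochondrial relative, had 5.64 in xrn1 RNAi, 3.49 in RNAi, 218 in xrn1 and 153 in WT. For each, the intervals of the libraries with and without the pathway did not overlap.

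The small genes rested on few reads. HSP26, which encodes a small heat shock protein that binds unfolded proteins, had 4 reads in xrn1 RNAi (a value of 0.305), 0 reads in RNAi (3 reads would be a value of 0.953), 22.1 in xrn1 and 16 in WT. HSP12, which encodes a small membrane-associated stress protein, had 14.4 in xrn1 RNAi, 0.953 in RNAi (3 reads), 124 in xrn1 and 2 in WT (2 reads). HSP12 was thus near the detection limit in both strains with XRN1 and well above it in both strains without.

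**Figure D2:**
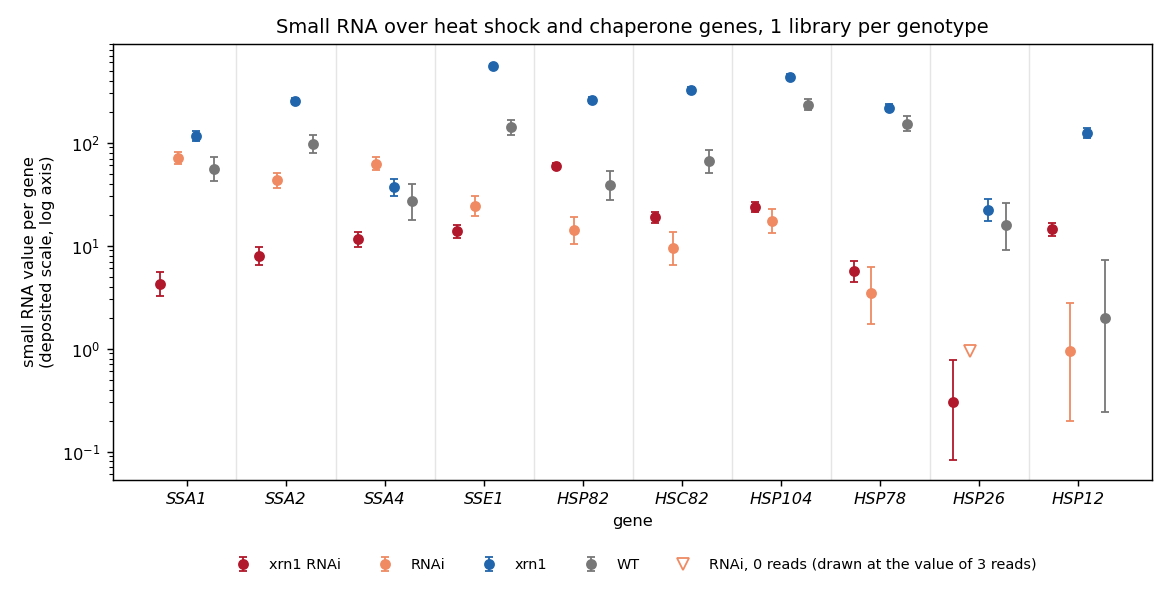
Small RNA value of each of the 10 genes (deposited scale, log axis) in xrn1 RNAi, RNAi, xrn1 and WT, 1 library each, with 95% Poisson intervals. In xrn1, 9 of the 10 genes have their highest value; SSA4 is highest in RNAi (62.6), and HSP26, with 0 reads in RNAi, is drawn at the value of 3 reads (0.953).

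Per kilobase of coding sequence, the order of the genes differed between libraries. HSP12 was highest in xrn1 RNAi (43.7 per kb) and in xrn1 (376 per kb), and lowest in WT (6.06 per kb). SSA1 and SSA4 led in RNAi (37.0 and 32.4 per kb), with overlapping intervals, and HSP104 and SSE1 led in WT (85.8 and 68.2 per kb), also overlapping. HSP26 was lowest in xrn1 RNAi (0.473 per kb) and in RNAi (0 reads), and SSA4 in xrn1 (19.2 per kb). Of the 9 pairs of neighbours in this order, 3 had overlapping intervals in xrn1 RNAi, 6 in RNAi, 2 in xrn1 and 8 in WT. Against all nuclear genes, the median gene of the 10 stood at percentile 39.5 in xrn1 RNAi, 57.5 in RNAi, 92.3 in xrn1 and 59.6 in WT, by value per gene.

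As a share of the reads over nuclear genes, which does not depend on the deposited scale, the 10 genes took 0.0273% (interval 0.0261 to 0.0285%) in xrn1 RNAi and 0.0434% (0.0404 to 0.0466%) in RNAi. They took 0.378% (0.369 to 0.386%) in xrn1 and 0.184% (0.172 to 0.197%) in WT. The share was lowest with both changes and highest with the XRN1 deletion alone.

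Addition of DCR1 and AGO1 to cells lacking XRN1 (xrn1 RNAi over xrn1) addressed how small RNA over these genes differs when a dicing pathway is present. All 10 genes were 2-fold or more lower in xrn1 RNAi, where 57.9% of nuclear genes were, and 0 were higher, where 15.4% were. A gene was counted when 1 of its libraries reached a value of 3.18, the pseudocount added before taking log2 differences. The largest differences with over 10 reads in both libraries were those of SSE1, 40.5-fold lower (interval 34.7 to 47.4), and HSP78, 38.7-fold lower (30.4 to 49.9). SSA2 was 31.5-fold lower (25.7 to 39.0) and SSA1 27.2-fold lower (20.4 to 36.7). Their sum was 12.3 in xrn1 RNAi against 368 in xrn1, 29.99-fold lower (25.4 to 35.6), the same direction as each gene alone. HSP104 was 18.4-fold lower (16.2 to 20.9), HSC82 17.2-fold lower (15.0 to 19.9, the sum of the Hsp90 pair 7.48-fold lower, 6.92 to 8.08) and HSP12 8.62-fold lower (7.22 to 10.3). HSP26 was 72.6-fold lower, with an interval of 27.1 to 274 from its 4 reads in xrn1 RNAi. It passed the filter through xrn1 alone, so that it could not have been counted as higher. HSP82 (4.37-fold, 3.95 to 4.83) and SSA4 (3.22-fold, 2.50 to 4.13) had the smallest differences of the 10.

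The median log2 difference of the 10 was -3.95, against -1.45 for nuclear genes. On this scale 9 of the 10 lay below the nuclear median, 8 of them by a further 2-fold or more, and SSA4 (-1.45) lay at it. The share of all nuclear genes that lay so far below their median was not computed. With size factors, which shift this comparison by 1.61 on the log2 scale, 8 were still 2-fold or more lower, the exceptions being HSP82 (-0.51) and SSA4 (-0.07). The median of the 10 relative to nuclear genes was then -2.44. The share of nuclear genes called with size factors was not computed.

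In cells with XRN1 (RNAi over WT) the genes did not move together. Of the 9 counted, 7 were 2-fold or more lower in RNAi, where 60.1% of nuclear genes were, and 1 was higher, where 15.3% of nuclear genes were. HSP78 was 43.8-fold lower (interval 23.8 to 89.6, 11 reads in RNAi), HSP104 13.4-fold lower (9.95 to 18.3) and HSC82 6.93-fold lower (4.44 to 11.1). SSE1 was 5.81-fold lower (4.37 to 7.77), HSP82 2.73-fold lower (1.73 to 4.29) and SSA2 2.25-fold lower (1.71 to 2.94). HSP26, with 0 reads in RNAi, was 16.8-fold lower at the floor of 3 reads, with an exact interval of 12.1-fold or more lower. It passed the filter through WT alone, so that it could not have been counted as higher. SSA4 was 2.32-fold higher (1.54 to 3.61). SSA1 was 1.28 times the WT value with an interval of 0.948 to 1.74, which includes no difference. The sum of SSA1 and SSA2 was 1.33-fold lower (1.10 to 1.62), opposite in direction to SSA1 alone, and that of HSP82 and HSC82 4.41-fold lower (3.25 to 6.01). HSP12 was not counted, with 3 reads in RNAi and 2 in WT.

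These directions depend on scale more than those in cells lacking XRN1. Size factors moved the log2 differences of RNAi over WT up by 1.91. With them, 2 of the 10 counted were 2-fold or more higher, SSA1 and SSA4, and 3 were lower, HSP104, HSP78 and HSP26, while SSA2 and HSP82 turned to slightly higher values. The nuclear shares above belong to the deposited scale and were not computed with size factors, where the median relative to nuclear genes was -0.0909. On the deposited scale the median log2 difference of the 9 was -2.39, against -1.56 for nuclear genes. There, 4 of the 9 lay above the nuclear median: SSA1, SSA2, SSA4 and HSP82.

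**Figure D3:**
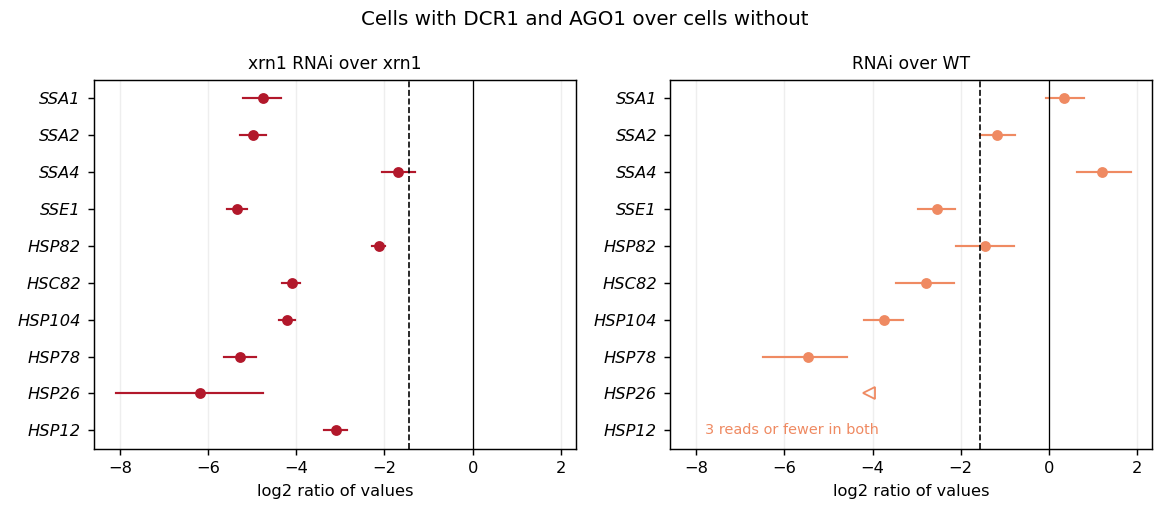
Log2 ratio of values with 95% exact intervals for xrn1 RNAi over xrn1 (left) and RNAi over WT (right), 1 library per genotype. The open triangle is HSP26 at the floor of 3 reads (16.8-fold lower, drawn without its interval). HSP12, with 3 reads in RNAi and 2 in WT, was not counted and its ratio is not drawn in RNAi over WT. The dashed line is the median log2 difference of nuclear genes with the pseudocount. All 10 genes lie left of 0 in the left panel, while SSA1 and SSA4 lie right of it in the right panel.

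The difference between these contrasts, in cells lacking XRN1 minus in cells with it, was below 0 for all 10 genes on the log2 scale with a median of -1.99, against -0.03 for nuclear genes. Of the 10, 6 were lower by 1 or more (24.2% of nuclear genes were) and 0 higher (23.3%). SSA1 had -4.34, SSA2 -3.40, SSE1 -2.65, SSA4 -2.58, HSP12 -2.53 and HSC82 -1.45. HSP82 (-0.80), HSP104 (-0.51), HSP26 (-0.27) and HSP78 (-0.10) were nearer 0. On plain ratios, with an approximate interval of counting error, 6 of the 9 genes with reads in every library had an interval wholly below 0: SSA1, SSA2, SSA4, SSE1, HSC82 and, narrowly, HSP82 (-0.68, interval -1.31 to -0.04). The interval of HSP12 (-4.63 to 0.56) was wide because of its 2 and 3 reads. The signs of HSP104, HSP78 and HSP26 turned to positive on at least 1 other scale or pseudocount. Division by library sums shifts this difference up by 0.54, which puts the HSP82 interval across 0 and brought the log2 difference of HSC82 to -0.90. The share of all genes with an interval below 0 was not computed.

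Loss of XRN1 where the pathway was present (xrn1 RNAi over RNAi) went with lower values of the 3 SSA genes and higher values of HSP82 and HSP12. SSA1 was 16.7-fold lower in xrn1 RNAi (interval 12.4 to 22.9), SSA4 5.44-fold lower (4.38 to 6.76) and SSA2 5.40-fold lower (4.15 to 7.03). The sum of SSA1 and SSA2 was 9.34-fold lower (7.74 to 11.3). These 3 of the 9 counted were 2-fold or more lower, where 11.5% of nuclear genes were, and 2 were higher, where 33.2% were. HSP82 was 4.15-fold higher (3.07 to 5.74), and HSP12 was 15.1-fold higher (5.10 to 74.0) but passed the filter only through xrn1 RNAi, so that it could not have been counted as lower. HSC82 was 1.98-fold higher (1.36 to 3.003), short of the threshold, and the sum of the Hsp90 pair was 3.28-fold higher (2.60 to 4.21). SSE1 was 1.78-fold lower (1.35 to 2.34). HSP104 was 1.36 times the RNAi value (1.02 to 1.84) and HSP78 1.61 times (0.852 to 3.37). HSP26 was not counted, with 4 reads in xrn1 RNAi and 0 in RNAi.

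The lower values of the 3 Hsp70 genes and the higher ones of HSP82 and HSP12 kept their direction with each scaling and pseudocount tried. For these 9 genes the median log2 difference was 0.38, against 0.55 for nuclear genes. Of 10 other Hsp70 and Hsp110 genes, 3 were 2-fold or more lower, where 11.5% of nuclear genes were, and 0 higher, where 33.2% were. Their median, with the pseudocount, was -0.08, also below the 0.55 of nuclear genes. That list thus leaned the same way as the SSA genes, though most of its genes were not 2-fold lower.

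Deletion of XRN1 in cells without the pathway (xrn1 over WT) gave higher values of all 10 genes on the deposited scale. Of the 10, 6 were 2-fold or more higher in xrn1, where 33.3% of nuclear genes were, and 0 lower, where 9.9% were. HSP12 was 62.1-fold higher (interval 17.1 to 515, from 2 reads in WT). It passed the filter only through xrn1, so that it could not have been counted as lower. HSP82 was 6.64-fold higher (4.82 to 9.41), HSC82 4.94-fold higher (3.85 to 6.43), SSE1 3.91-fold higher (3.29 to 4.67), SSA2 2.60-fold higher (2.10 to 3.24) and SSA1 2.07-fold higher (1.56 to 2.80). The sum of the Hsp90 pair was 5.57-fold higher (4.57 to 6.85) and that of SSA1 and SSA2 2.41-fold higher (2.03 to 2.87). HSP104 was 1.86 times the WT value (1.62 to 2.15), HSP78 1.43 times (1.19 to 1.71), HSP26 1.38 times (0.793 to 2.56) and SSA4 1.37 times (0.894 to 2.17). With size factors or division by library sums, 4 genes stayed 2-fold or more higher, HSP12, HSP82, HSC82 and SSE1, and the differences of SSA4, HSP78 and HSP26 came to within 0.11 of 0 on the log2 scale, on either side of it. The median relative to nuclear genes was 0.65 with either, and the share of nuclear genes called was not computed on those scales. On the deposited scale the median log2 difference of the 10 was 1.18, against 0.51 for nuclear genes.

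**Figure D4:**
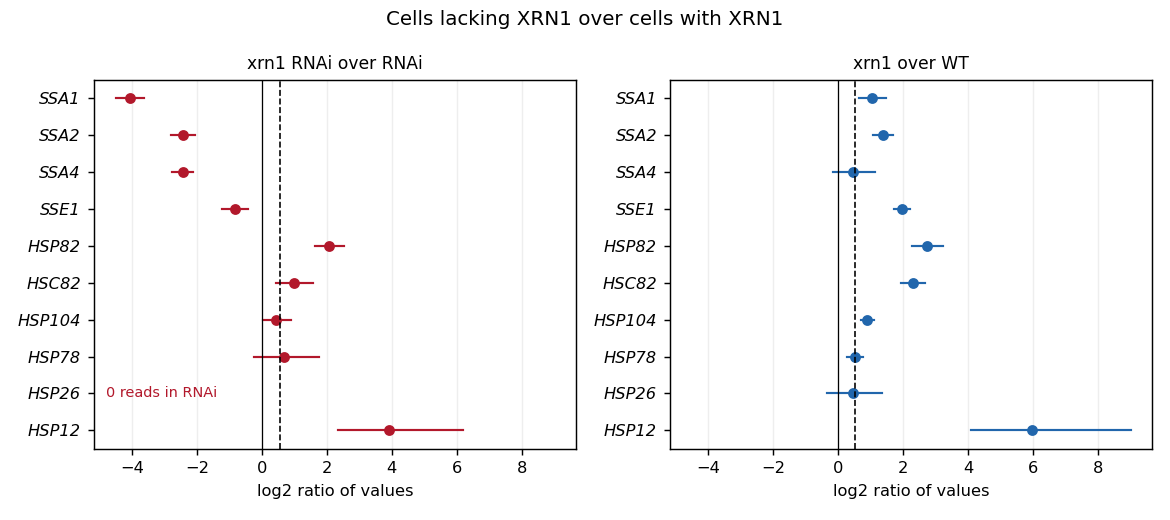
Log2 ratio of values with 95% exact intervals for xrn1 RNAi over RNAi (left) and xrn1 over WT (right), 1 library per genotype; the dashed line is the median log2 difference of nuclear genes with the pseudocount. The 3 Hsp70 genes and SSE1 lie left of 0 in the left panel and right of 0 in the right panel, while HSP82, HSC82 and HSP12 lie right of 0 in both.

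The 4 comparisons share libraries, each library entering 2 of them, so their values are given side by side and not as independent observations. The ratio of 2 genes within a library depends on no scale. SSA4 per length was 1.43 times SSA2 in xrn1 RNAi (interval 1.11 to 1.85) and 1.44 times in RNAi (1.15 to 1.81), against 0.146 times in xrn1 (0.119 to 0.178) and 0.277 times in WT (0.174 to 0.428). The intervals of the libraries with and without DCR1 and AGO1 did not overlap. SSA2 shares sequence with SSA1, so this ratio too depends on how their shared reads were assigned. Set against SSA1, SSA4 was higher in xrn1 RNAi (5.97 against 2.21 per kb) but not in RNAi (32.4 against 37.0). It was lower than SSA1 in xrn1 (19.2 against 60.1) and in WT (14.0 against 29.0). HSP82 per length was 3.12 times HSC82 in xrn1 RNAi (2.70 to 3.61) and 1.49 times in RNAi (0.919 to 2.45), against 0.791 times in xrn1 (0.719 to 0.869) and 0.588 times in WT (0.385 to 0.886). SSA1 per length was 1.65 times SSA2 in RNAi (1.33 to 2.05), and in the other libraries 0.531 times in xrn1 RNAi (0.377 to 0.741), 0.458 times in xrn1 (0.402 to 0.520) and 0.575 times in WT (0.406 to 0.807). The RNAi library thus stood apart in the ratio of SSA1 to SSA2, a ratio into which their shared reads enter.

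None of the 10 genes overlapped another annotated gene in R64 (0 of 10), and 1.53% of nuclear coding genes overlapped one on the opposite strand. The nearest downstream gene was on the opposite strand, facing the chaperone gene, for 6 of 10, against 52.3% of nuclear coding genes, at 185 to 444 bases. The facing genes of SSA2, SSE1, HSC82, HSP26 and HSP12 code for proteins and that of SSA1 is a tRNA gene. PAU17 beside SSA2 had 6 reads in xrn1 RNAi and 2 in RNAi, DPC25 beside SSE1 had values of 1.37 in xrn1 RNAi and 0.635 in RNAi, and YBR072C-A beside HSP26 had 0 reads in both. YMR187C beside HSC82 had 23.2 in xrn1 RNAi and 13.0 in RNAi, close to the 18.9 and 9.53 of HSC82. IES1 beside HSP12 had 11.4 in xrn1 RNAi, 2.54 in RNAi, 125 in xrn1 and 89 in WT, near the values of HSP12 in both libraries lacking XRN1 but well above its 2 reads in WT. CIN2, which lies 237 bases downstream of HSP82 on the same strand, had 467 in xrn1 RNAi, 59.1 in RNAi, 85.2 in xrn1 and 16 in WT. No value was given for the tRNA genes beside SSA1 and HSP104 or for YFL015C beside HSP12. For SSA1, HSP104 and HSP12 only the other neighbour could therefore be compared. A neighbour with a higher value in xrn1 RNAi was found for 8 of the 10 genes, all but HSP104 and HSP12. The same was found for 6 of the 10 in RNAi, 4 in xrn1 and 5 in WT. The share over all nuclear genes was not computed, so these counts are not shown to be unusual. HSP26, with a value of 0.305, lies beside YBR071W with 382, and SSA4, with 11.5, beside RTT105 with 147. The table does not show where in a gene its reads lie, and the part of neighbours in these values was not tested.

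The promoters were searched because the genes are known as targets of shared stress factors and 10 of 10 were lower in 1 comparison. The 300 bases before each start codon were searched on both strands for the heat shock element, taken as GAA, then TTC, then GAA with 2 free bases between each, and for the stress response element AGGGG. The first was found in 5 of the 10 and in 0.867% of 5766 nuclear promoters, and the second in 6 of the 10 and in 22.4%. The 10 were picked as heat shock and chaperone genes, so these shares describe the choice of genes and not their small RNA. HSC82 and HSP26 had a match to neither element and were also lower in xrn1 RNAi over xrn1. Matches to the first element are shown in capitals, on the coding strand of each gene and with the bases before the start codon at which the match begins. They lie at chrI:141676-141696 (SSA1, 261 bases), chrXII:97702-97722 (SSA2, 233 bases), chrXVI:352445-352465 (SSE1, 186 bases), chrXII:88323-88342 (HSP104, 297 bases) and chrIV:974474-974494 (HSP78, 247 bases, with a second, overlapping match).
SSA1: ctttTTCCAGAACGTTCcatc
SSA2: ttttTTCTAGAACATTCcatc
SSE1: atgaTTCTAGAAGATTCcttt
HSP104: ccaGAATTTTCTAGAAgggt
HSP78: tattTTCCAGAATGTTCtaga
No match to one element overlapped a match to the other. A match is a description of the sequence, and no match says only that these letters are not in the window.

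The wider chaperone and stress network was described with 84 genes in 8 lists, all present in the table. In xrn1 RNAi over xrn1, 58 of the 82 counted were 2-fold or more lower and 5 higher, with a median of -2.02, against -1.45 for nuclear genes. In RNAi over WT 55 of 81 were lower and 7 higher, with a median of -1.77, against -1.56. In xrn1 RNAi over RNAi 26 of 74 were higher and 7 lower, and in xrn1 over WT 35 of 82 were higher and 1 lower. For comparison, 57.9% of nuclear genes were lower in the first of these comparisons and 60.1% in the next, and 33.2% and 33.3% were higher in the last pair. In the same order, 15.4% and 15.3% were higher, and 11.5% and 9.9% were lower.

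Other Hsp70 and Hsp110 genes were lower in 8 of 10 in xrn1 RNAi over xrn1, where 57.9% of nuclear genes were. They were lower in 7 of 10 in RNAi over WT, where 60.1% of nuclear genes were. KAR2, the Hsp70 of the endoplasmic reticulum, had 11.2 in xrn1 RNAi, 10.5 in RNAi, 609 in xrn1 and 472 in WT. SSC1, the Hsp70 of the mitochondrial matrix, had 14.9 in xrn1 RNAi, 14.6 in RNAi, 722 in xrn1 and 909 in WT. LHS1, which encodes an Hsp110 relative of the endoplasmic reticulum, was the 1 of the 10 that was 2-fold or more higher in RNAi over WT (201 against 78). ECM10, another mitochondrial Hsp70 gene, differed least in cells lacking XRN1 (23.02 in xrn1 RNAi against 33.4 in xrn1).

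Among 21 J-protein genes, whose products bring substrates to Hsp70, 17 were lower and 1 higher in xrn1 RNAi over xrn1. In RNAi over WT, 18 were lower and 1 higher. Of nuclear genes, 57.9% were lower and 15.4% higher in the former, and 60.1% and 15.3% in the latter. The same gene stood highest in both, the mitochondrial J-protein gene MDJ2, with 55.7 in xrn1 RNAi against 14.9 in xrn1, and 215 in RNAi against 14 in WT. ZUO1, a ribosome-bound J-protein gene, stood lowest in both, with 4.27 in xrn1 RNAi against 202 in xrn1, and 2.86 in RNAi against 78 in WT.

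Of 12 genes of Hsp90 co-chaperones, 8 were lower and 1 higher in xrn1 RNAi over xrn1, where 57.9% and 15.4% of nuclear genes were. In RNAi over WT, 8 were lower and 2 higher, where 60.1% and 15.3% of nuclear genes were. In xrn1 over WT 9 of the 12 were higher and 0 lower, where 33.3% and 9.9% of nuclear genes were. The median log2 difference of the 12 was 2.04, against 0.51 for nuclear genes. STI1, which links Hsp70 to Hsp90, had 15.0 in xrn1 RNAi, 3.81 in RNAi, 367 in xrn1 and 45 in WT. TAH1, an Hsp90 cofactor of the assembly of RNA-protein complexes, ran the other way, with 196 in xrn1 RNAi against 47.6 in xrn1, and 76.2 in RNAi against 5 in WT. SBA1, the p23 homologue, was lowest in RNAi over WT, with 2 reads in RNAi and 28 in WT.

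Of the 4 nucleotide exchange factor genes of Hsp70, 1 was lower in xrn1 RNAi over xrn1, where 57.9% of nuclear genes were. In RNAi over WT, 2 were lower, where 60.1% of nuclear genes were. MGE1, the mitochondrial factor, had 4.42 in xrn1 RNAi, 1.91 in RNAi, 203 in xrn1 and 124 in WT, while SNL1 had 97.7 in xrn1 RNAi against 81.9 in xrn1 and 21.9 in RNAi against 13 in WT. Chaperonin and prefoldin genes, whose products enclose or deliver folding proteins, were lower in 13 of 16 in xrn1 RNAi over xrn1 (57.9% of nuclear genes). They were lower in 11 of 16 in RNAi over WT (60.1% of nuclear genes). In either, 0 were higher, where 15.4% and 15.3% of nuclear genes were. CCT4, a subunit of the cytosolic chaperonin, had 5.34 in xrn1 RNAi against 182 in xrn1, but CCT2, another subunit, had 212 against 242. In RNAi over WT the subunit gene CCT8 had 4.13 in RNAi against 147 in WT, and the prefoldin gene PAC10 35.9 against 30.

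Of 6 other heat shock protein genes 4 were counted. In xrn1 RNAi over xrn1, 0 were lower and 1 higher, where 57.9% and 15.4% of nuclear genes were. The higher gene was HSP31, a gene with close paralogs, with 195 in xrn1 RNAi against 38.3 in xrn1. HSP31 had 36.8 in RNAi against 4 in WT. HSP42, which encodes a small heat shock protein like HSP26, had 65.2 in xrn1 RNAi, 28.3 in RNAi, 110 in xrn1 and 138 in WT. In xrn1 RNAi over RNAi all 4 counted were 2-fold or more higher, where 33.2% of nuclear genes were. HSF1 itself had 368 in xrn1 RNAi, 412 in RNAi, 104 in xrn1 and 115 in WT, and so was higher in both libraries with the pathway, while MSN2 was lower in both (13.6 in xrn1 RNAi against 79.6 in xrn1, and 9.84 in RNAi against 35 in WT). Of 12 general stress genes, 10 were lower and 1 higher in xrn1 RNAi over xrn1, where 57.9% and 15.4% of nuclear genes were. Of 11 counted in RNAi over WT, 5 were lower and 1 higher, where 60.1% and 15.3% of nuclear genes were. GPH1, the glycogen phosphorylase gene, had 303 in xrn1 RNAi against 100 in xrn1, and TSL1, a gene of trehalose synthesis, 222 in RNAi against 70 in WT. UBI4, the polyubiquitin gene, had 4.12 in xrn1 RNAi against 124 in xrn1, with the caution that ubiquitin is encoded by several genes. SOL4 had 1 read in RNAi and 29 in WT.

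**Figure D5:**
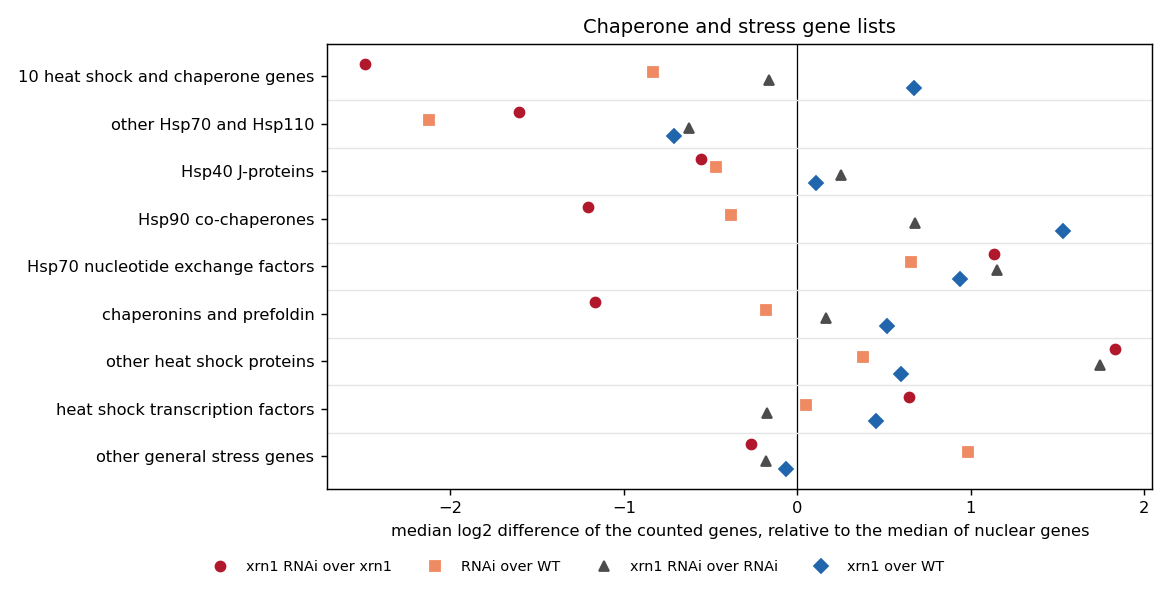
Median log2 difference (value plus pseudocount) of the counted genes of each list relative to the median of nuclear genes, for xrn1 RNAi over xrn1, RNAi over WT, xrn1 RNAi over RNAi and xrn1 over WT, 1 library per genotype and no test. The 10 heat shock and chaperone genes lie lowest in xrn1 RNAi over xrn1 (-2.49) and the list of other heat shock proteins, with 4 counted genes, lies highest (1.83).

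The log2 profile of each of the 10 genes over the 4 libraries was centred on its own mean, and the median of the 10 centred values was -1.498 in xrn1 RNAi, -1.63 in RNAi, 2.24 in xrn1 and 0.60 in WT. Among 4912 other nuclear genes with a value of 31.8 or more in 1 library, those nearest to it by Euclidean distance were RPS24B, a ribosomal protein gene (distance 0.181), MIC19 (0.184), CPP2 (0.195), PAM18, a J-protein gene of the mitochondrial import motor (0.234), and POC4 (0.240). HSC82 was the nearest of the 10 genes (0.678) and SSA4 the farthest (3.37). Of those 4912 genes, 35.1% lay nearer than the median of the 10, so this profile is a common one and the 10 genes scatter about it.

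An additive count model over 5407 nuclear genes (edgeR's quasi-likelihood test with Benjamini-Hochberg adjustment, on the deposited scale) takes the backgrounds as replicates of each effect and leaves 1 residual degree of freedom. It assumes that the effects add, and the Hsp70 values above departed from that. For DCR1 and AGO1 it called 467 genes higher and 2563 lower at an adjusted p under 0.05, and 8 of the 10 genes were among those lower (8.64% of genes tested were called higher and 47.4% lower), SSA1 (adjusted p = 0.0537) and SSA4 (0.814) being the others. For the XRN1 deletion it called 153 higher and 16 lower (2.83% and 0.296%), and of the 10 genes HSP12 alone, at a log2 fold change of 4.89 (adjusted p = 0.00255). With TMM scaling, an alternative added after seeing the data, 4 of the 10 were called lower for DCR1 and AGO1, where 1128 genes (20.9%) were called higher and 1028 (19.0%) lower. For the deletion HSP12 alone was called, higher, where 12 genes (0.222%) were called higher and 14 (0.259%) lower.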

How the data were processed

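RNA of 10 to 40 nucleotides was made into 1 library per genotype, per the labels' protocols. The submitters' processing notes name cutadapt and Bowtie; the sources used here do not give versions, genome build, annotation, strand, multi-mapping or the scaling rule. The WT column of the deposited table holds a count of reads per gene. The other 3 deposited columns hold a signal equal to whole reads times 1 factor per library: 100% of values were whole multiples of the smallest, to a tolerance of 1e-06. No per-sample column was left unused.

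Log2 differences used a pseudocount of 3.18, the 10th percentile of non-zero values, which understates differences of low genes; folds are plain ratios. A fold against 0 reads uses 3 reads per library as the floor. Sequences and positions were taken by gene identifier from RefSeq assembly R64 (5789 identifiers matched), aligned with Biopython 1.88; the table's own build is not known. Alternatives were other pseudocounts, filters and scalings, summed paralog pairs and an edgeR 4.0.16 model in R 4.3.3. The model was also run on simulated counts, whose effects were additive and whose dispersion was lower than that fitted to the data. That run therefore does not show how well the model performs on these data. Members and lists were chosen with earlier results of these data known, and the paralog ratios, promoter search and TMM scaling after seeing the data. Beyond the 10 genes, the text names the highest and lowest gene of each list in both pathway comparisons, neighbouring genes chosen after their values were seen, and the 5 genes of nearest profile.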

Additional observations from a re-analysis of the deposited data

Results flagged for a closer look

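The difference with DCR1 and AGO1 ran in opposite directions in the 2 backgrounds for SSA1 and SSA4. SSA1 had a log2 difference of -4.001 in cells lacking XRN1 and 0.33 in cells with XRN1, so that the first minus the second was -4.34. The value in cells with XRN1 has a counting interval that includes no difference (ratio 1.28, 0.948 to 1.74). On the deposited scale the sum of SSA1 and SSA2 was lower in both backgrounds (-4.59 and -0.41). The opposite directions are thus not seen on that scale when their shared reads are summed. With size factors, however, SSA1 (2.20) and SSA2 (0.72) were both higher in RNAi over WT. Both stayed lower in xrn1 RNAi over xrn1 (-2.79 and -3.15). For SSA4 the values on the deposited scale were -1.45 and 1.12, with -2.58 between them. Viewed the other way, the XRN1 deletion went with lower values in cells with the pathway and higher values in cells without it for SSA1 (-4.34), SSA2 (-3.40), SSA4 (-2.58) and SSE1 (-2.65), the 4 Hsp70 and Hsp110 genes of the 10. For SSA4 the value in cells without the pathway was 1.37 times that of WT with an interval of 0.894 to 2.17, and its log2 difference of 0.41 turned to -0.11 with division by library sums and to -0.01 with size factors. Each background holds 1 library per genotype, so the difference between them was not tested. With the reads of SSA1 and SSA2 summed, the difference was -4.18.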

How the results depend on the processing

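No paired analysis was possible because each genotype has 1 library and no replicate number; the additive edgeR model takes libraries together by background. With a pseudocount of 31.8, the 10 genes counted as higher and lower in RNAi over WT were 0 and 4, and 0 were higher in xrn1 RNAi over RNAi. Their medians relative to nuclear genes were -0.18 in RNAi over WT, -1.64 in xrn1 RNAi over xrn1 and -1.34 for the difference between backgrounds. The 84 other genes then had 27 lower in RNAi over WT, 12 higher in xrn1 RNAi over RNAi, 21 higher and 0 lower in xrn1 over WT, 4 higher for the difference between backgrounds and a relative median of -0.27 in xrn1 RNAi over xrn1. With a pseudocount of 0.318 the relative median of the 10 in xrn1 RNAi over xrn1 was -2.79, and with the pairs summed it was -1.99. With only genes of 31.8 or more, it was -0.0759 in RNAi over WT and -2.58 in xrn1 RNAi over RNAi, where 1 of the 4 genes left was higher, and 15 of the wider lists were.

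With size factors the 10 had 2 higher and 3 lower in RNAi over WT (relative median -0.0909), with SSA2 at 0.72 and HSP82 at 0.43. The wider lists had 21 higher and 28 lower there, 18 higher and 36 lower in xrn1 RNAi over xrn1, and 3 lower in xrn1 over WT. With division by library sums they had 10 higher in xrn1 RNAi over xrn1, 4 lower in xrn1 over WT and 16 higher for the difference between backgrounds. With division by nuclear sums, 3 were lower in xrn1 over WT, and 0 of the 10 were higher in RNAi over WT. In the additive edgeR fit SSA4 had -0.27 for the pathway, and SSA1 -1.4995 and SSA2 -0.52 for the XRN1 deletion, each opposite in sign to a comparison above. The cause of these shifts was not tested, and the share of all nuclear genes called was not computed for these other settings. HSP12 in WT (2 reads) and in RNAi (3 reads) and HSP26 with the pathway (0 and 4 reads) are limited by depth.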
